A study of Mus musculus with 16 samples.

Results

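The xenobiotic and aldehyde metabolism enzymes described here are 10 genes, chosen by symbol: the cytochrome P450 genes Cyp2f2, Cyp4b1, Cyp1a1, Cyp2s1 and Cyp2b10, the aldehyde dehydrogenases Aldh1a1 and Aldh3a1, the flavin monooxygenases Fmo1 and Fmo2, and the aldehyde oxidase Aox3. All 10 had a row among the 27179 gene identifiers of the count table, and 9 of them were among the 15516 genes with enough counts to test. Cyp1a1 was the member left out. RNA came from mouse lung alveolar type 2 (AT2) cells, which make surfactant, sorted on flow gates for epithelial markers and against CD45 and CD31 from 8 animals into a CD44+ and a CD44- fraction each, which gave 16 libraries in 4 groups of 4. The study asked how CD44+ and CD44- AT2 cells differ in fibrosis, in lungs of control animals and of animals with a mutant Sftpc, the gene of surfactant protein C. The groups are called by the prefixes in the count table, as OG CD44+, OG CD44-, R26 CD44+ and R26 CD44-. The labels give 8 samples the genotype SP-C Mutant and 8 the genotype SP-C WT, without naming the mutation, the strain, the age or a promoter, and all 16 carry the same treatment text, OG TMX. No label ties a prefix to a genotype. Reading OG as mutant and R26 as control is an inference, and if it is wrong each OG against R26 difference runs the other way by genotype, while CD44+ against CD44- comparisons within a prefix stand.

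Cytochrome P450 enzymes insert oxygen into lipophilic chemicals and fatty acids, with electrons passed on by P450 oxidoreductase or cytochrome b5. Flavin monooxygenases oxygenate nitrogen and sulfur atoms, aldehyde dehydrogenases oxidise aldehydes to acids, and aldehyde oxidases are molybdenum enzymes that oxidise aldehydes and nitrogen heterocycles. In the mouse lung much of this activity sits in club cells of the airways, where Cyp2f2 turns naphthalene into a toxic epoxide, and Aldh1a1 makes retinoic acid from retinaldehyde. Cyp1a1 is the classic target of the aryl hydrocarbon receptor, and Cyp2b10 the classic target of the constitutive androstane receptor in mouse liver.

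Promoter sequence from RefSeq (GRCm38.p6) was at hand for 8 of the 10 genes, as the 250 bases before the annotated start. The 4 windows below are shown as examples of genes that differed between sorts (Cyp2f2), between sorts and prefixes (Cyp2s1) and between prefixes in opposite directions (Cyp2b10 and Aox3). Other members differed as clearly, such as Aldh1a1, whose sort differences were larger than those of Cyp2f2. The 4 windows lie at chr7:27119705-27119954 on the plus strand, chr7:25816526-25816775 on the minus strand, chr7:25897408-25897657 on the plus strand and chr1:58112886-58113135 on the plus strand, in the order printed. Capitals mark GCGTG, the core of the aryl hydrocarbon receptor element, on either strand.
Cyp2f2: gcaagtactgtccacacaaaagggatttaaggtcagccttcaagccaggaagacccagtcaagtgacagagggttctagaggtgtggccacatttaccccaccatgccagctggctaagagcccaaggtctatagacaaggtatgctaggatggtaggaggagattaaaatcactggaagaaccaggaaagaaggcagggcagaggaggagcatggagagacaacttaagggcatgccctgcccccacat
Cyp2s1: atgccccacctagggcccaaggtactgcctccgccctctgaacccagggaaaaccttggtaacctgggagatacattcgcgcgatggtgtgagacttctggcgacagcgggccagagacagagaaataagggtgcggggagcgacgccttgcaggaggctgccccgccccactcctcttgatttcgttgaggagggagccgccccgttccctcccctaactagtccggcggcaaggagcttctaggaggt
Cyp2b10: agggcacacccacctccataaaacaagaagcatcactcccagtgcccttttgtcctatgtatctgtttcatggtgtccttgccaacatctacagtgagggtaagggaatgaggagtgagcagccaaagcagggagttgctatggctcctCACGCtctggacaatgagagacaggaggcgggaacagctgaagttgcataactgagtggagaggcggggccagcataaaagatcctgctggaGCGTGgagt
Aox3: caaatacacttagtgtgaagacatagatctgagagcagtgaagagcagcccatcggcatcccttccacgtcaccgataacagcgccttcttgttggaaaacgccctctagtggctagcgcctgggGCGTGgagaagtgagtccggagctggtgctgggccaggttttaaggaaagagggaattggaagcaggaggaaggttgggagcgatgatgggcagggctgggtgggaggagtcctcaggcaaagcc
GCGTG was found 2 times in the Cyp2b10 window, 101 and 9 bases before the start, once in the Aox3 window, 125 bases before the start, and once in the Cyp1a1 window, 54 bases before the start used there. The Cyp1a1 window lies at chr9:57697363-57697612 on the plus strand, so that start is inside the gene span given below. GCGTG was not in the windows of Cyp2f2, Cyp2s1, Cyp4b1, Aldh1a1 or Fmo2. Of 32851 promoter windows of the same length 28.2% held it, so its presence in 3 of the 8 genes is a description of letters and says nothing of the factor. The antioxidant response element letters TGACNNNGC, searched on both strands and present in 10.2% of all windows, were in none of the members' windows. The forkhead core TGTTTAC, present in 3.17% of all windows, was in 1 of 2 Fmo2 windows. None of these 3 motifs contains another.

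Levels are CPM, counts scaled to the library's TMM-adjusted total, and a difference is a log2 fold change with its SE by edgeR's quasi-likelihood test, called at a Benjamini-Hochberg adjusted p under 0.05 over all genes tested. Library totals ran from 9022471 to 21363816 counts. Sftpc, which defines AT2 cells, was at 6696 ± 684 CPM in OG CD44+, 11680 ± 432 CPM in OG CD44-, 54360 ± 12250 CPM in R26 CD44+ and 79590 ± 7872 CPM in R26 CD44- libraries (SD, n = 4 each). Cd44 was at 914 ± 22.6, 562 ± 24.1, 469 ± 77.4 and 329 ± 4.45 CPM in the same groups, higher in the CD44+ sort of both prefixes. All 12 AT2 markers on a fixed list were lower in OG than in R26 cells and lower in CD44+ than in CD44- cells. RNA of other cell types was present in all groups. In bulk RNA, fewer cells of a type and less RNA per cell cannot be told apart.

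Most of these enzymes were higher in CD44+ than in CD44- cells. In OG animals 5 of the 9 tested members were higher and 1 was lower in CD44+ cells, beside 50.4% of all tested genes called, 22.3% higher and 28.0% lower. In R26 animals 7 were higher and 1 was lower, beside 37.1% of all genes called, 21.6% higher and 15.4% lower. The libraries of the sorts did not overlap for 7 of 9 members in OG (5 higher, 2 lower) and for 8 of 9 in R26 animals (7 higher, 1 lower), beside 51.0% (22.6% higher, 28.4% lower) and 28.8% (17.2% higher, 11.6% lower) of all genes. With the animal as a block, since both sorts came from the same animals, 8 members were called in OG and 9 in R26 animals, beside 55.3% (24.4% higher, 30.8% lower) and 42.5% (23.4% higher, 19.1% lower) of all genes. The members' median log2 fold change was 0.42 in OG and 1.48 in R26 animals, against medians over all genes of -0.06 and -0.02. Aox3 was the member that fell in both. Among all called genes in the R26 sort comparison 58.4% were higher in CD44+ cells with TMM scaling and 48.0% with DESeq2 size factors, while the members' calls were 7 higher and 1 lower with both.

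Between prefixes the enzymes split. In CD44- cells 6 of 9 were higher and 1 was lower in OG than in R26, beside 69.0% of all genes called, 39.4% higher and 29.6% lower. In CD44+ cells 3 were higher and 4 lower, beside 69.1% of all genes called, 34.5% higher and 34.6% lower, so the members' shares lay near the background there. The libraries of the prefixes did not overlap for 6 members in CD44- cells (5 higher, 1 lower) and 5 in CD44+ cells (3 higher, 2 lower), beside 67.6% (38.6% higher, 29.0% lower) and 57.7% (29.3% higher, 28.3% lower) of all genes. The median log2 fold change of the tested members was 0.70 in CD44- cells and 0.17 in CD44+ cells, against 0.12 and -0.01 over all genes. Each group of libraries enters 1 sort comparison and 1 prefix comparison, so these counts are not independent of each other.

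**Figure D1:**
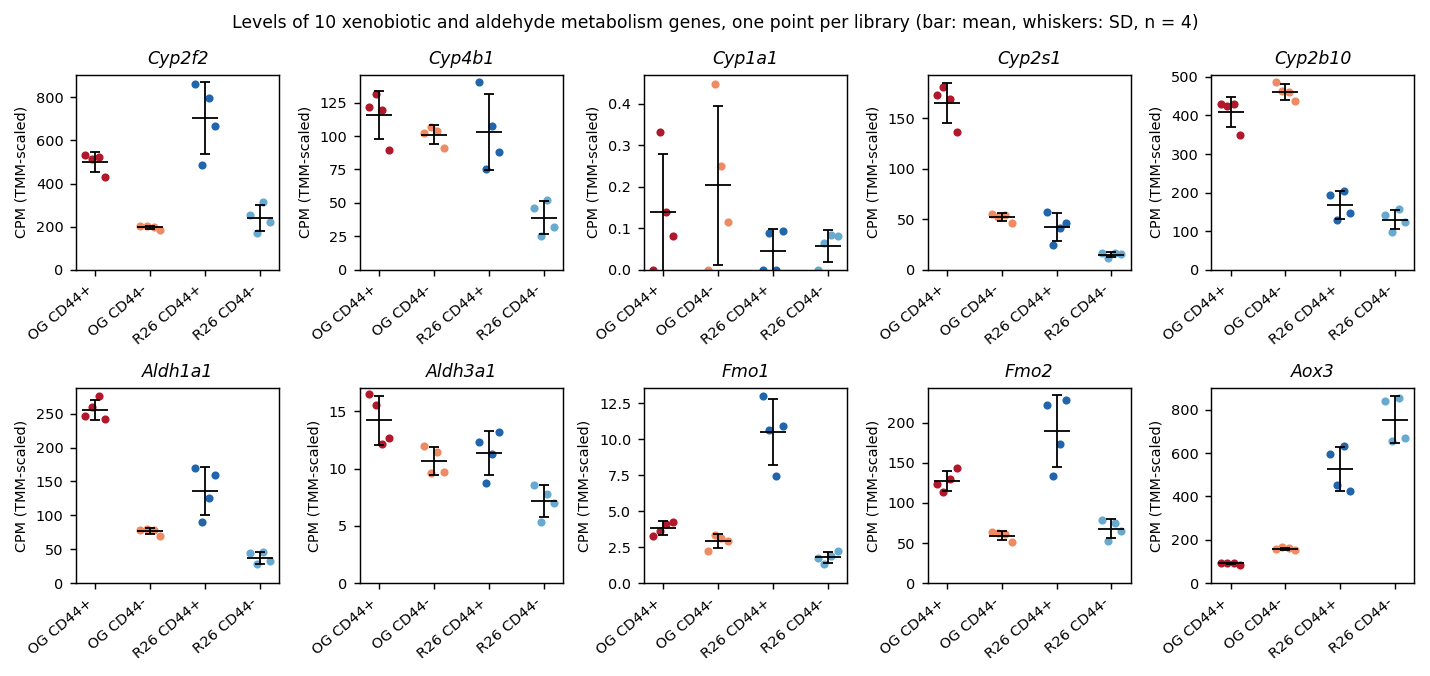
Level of each of the 10 genes in CPM (vertical axis, linear, from 0), with 1 point per library, a bar at the group mean and whiskers of 1 SD (n = 4). Cyp2f2, Cyp2s1, Aldh1a1 and Fmo2 were higher in the CD44+ sort of both prefixes, Aox3 was lowest in OG CD44+ libraries, and Cyp1a1 stayed under 0.45 CPM.

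Cyp2f2 followed the sort rather than the prefix (chr7:27119955-27133660 on the plus strand, mm10). It had 532, 512, 524 and 430 CPM in OG CD44+ libraries (animals 7, 6, 5 and 3), 202, 203, 198 and 183 CPM in OG CD44- libraries, 863, 488, 798 and 668 CPM in R26 CD44+ libraries (animals 8, 7, 2 and 1) and 252, 172, 315 and 221 CPM in R26 CD44- libraries. Each CD44+ library lay above each CD44- library, in both prefixes. The log2 difference of CD44+ to CD44- cells was 1.35 ± 0.19 in OG (adjusted p = 6.29e-05) and 1.55 ± 0.19 in R26 animals (adjusted p = 2.73e-05). Between prefixes the groups overlapped. The log2 difference of OG to R26 was -0.29 ± 0.19 in CD44- cells (adjusted p = 0.188) and -0.50 ± 0.18 in CD44+ cells (adjusted p = 0.0297), and the second call was lost without R26 CD44+ animal 8 or 2, OG CD44+ animal 6 or 3, or both libraries of R26 animal 8 or 2 or of any OG animal, with adjusted p up to 0.117. Without R26 CD44- animal 7 the difference among CD44- cells was -0.52 and called (adjusted p = 0.0185), as it was without R26 CD44+ animal 7 (-0.40, adjusted p = 0.0344) and without both libraries of R26 animal 7 (-0.53, adjusted p = 0.000988). An antisense gene, Gm15883, shares 274 exon bases with Cyp2f2, and the sources used here do not say whether counting used strand, so their reads cannot be told apart.

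Markers of club and secretory cells moved with Cyp2f2. All 14 listed markers were higher in OG CD44+ than in OG CD44- cells, 12 of 14 were higher in R26 CD44+ than in R26 CD44- cells, and none was lower. Their summed level was 2075 to 2722 CPM in OG CD44+, 845 to 956 CPM in OG CD44-, 1856 to 3077 CPM in R26 CD44+ and 880 to 1452 CPM in R26 CD44- libraries, with no marker at 0 throughout a group. Scgb1a1, the club cell secretory protein, had the pattern most like Cyp2f2 among all tested genes (Pearson r = 0.989 over 16 libraries, a description). The ratio of Cyp2f2 to Scgb1a1 CPM stayed between 0.288 and 0.485 in all 16 libraries, 0.288 to 0.355 in OG CD44+, 0.382 to 0.457 in OG CD44-, 0.354 to 0.397 in R26 CD44+ and 0.383 to 0.485 in R26 CD44- libraries. The ratio was thus lower in OG CD44+ than in OG CD44- libraries, with no overlap. Against Scgb3a2, another club cell secretoglobin, the ratio was less even, at 15.7 to 21.36 in OG CD44+, 20.8 to 32.0 in OG CD44-, 12.5 to 17.5 in R26 CD44+ and 14.9 to 18.5 in R26 CD44- libraries. The part of club cell RNA in the Cyp2f2 difference was not tested.

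Cyp2s1 (chr7:25802469-25816525 on the minus strand), a P450 found mainly in epithelia outside the liver, differed both by sort and by prefix. It had 173, 181, 169 and 136 CPM in OG CD44+, 55.1, 52.8, 54.2 and 46.8 CPM in OG CD44-, 56.8, 24.3, 41.5 and 46.4 CPM in R26 CD44+ and 16.9, 11.6, 16.7 and 15.2 CPM in R26 CD44- libraries. OG CD44+ libraries stood above all others and R26 CD44- libraries below all others, while OG CD44- and R26 CD44+ overlapped. CD44+ cells exceeded CD44- cells by 1.66 ± 0.18 on the log2 scale in OG (adjusted p = 7.22e-06) and by 1.49 ± 0.22 in R26 animals (adjusted p = 0.000148). OG exceeded R26 by 1.80 ± 0.21 in CD44- cells (adjusted p = 5.58e-06) and by 1.97 ± 0.19 in CD44+ cells (adjusted p = 7.94e-07). The sort difference was not shown to differ between prefixes (interaction 0.17 ± 0.29, adjusted p = 0.720). The noncoding gene Gm26707 on the other strand shares 260 exon bases with Cyp2s1, and their reads cannot be told apart.

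Ciliated cell markers moved in the same directions. Of the 11 tested, 10 were higher in OG CD44+ than OG CD44-, 8 in R26 CD44+ than R26 CD44-, 9 in OG CD44- than R26 CD44- and 10 in OG CD44+ than R26 CD44+ cells, with none lower. Their summed level was 677 to 837 CPM in OG CD44+, 528 to 553 CPM in OG CD44-, 386 to 491 CPM in R26 CD44+ and 317 to 363 CPM in R26 CD44- libraries. Foxj1, the transcription factor of motile cilia, had a log2 difference of OG to R26 of 1.35 in CD44- and 1.71 in CD44+ cells, both called. The ratio of Cyp2s1 to Foxj1 CPM ran from 0.956 to 1.74 over all 16 libraries, 1.25 to 1.33 in OG CD44+, 1.38 to 1.74 in OG CD44-, 0.956 to 1.37 in R26 CD44+ and 1.01 to 1.28 in R26 CD44- libraries, while Cyp2s1 itself ran from 11.6 to 181 CPM. Against Scgb1a1 the Cyp2s1 ratio was 0.0937 to 0.114 in OG CD44+ and 0.105 to 0.125 in OG CD44- libraries, and 0.0184 to 0.026 in R26 CD44+ and 0.0202 to 0.0326 in R26 CD44- libraries, higher in OG. The summed level of mesothelial markers also differed by sort and prefix, at 98.4 to 117 CPM in OG CD44+, 38.4 to 48.4 CPM in OG CD44-, 38.5 to 51.0 CPM in R26 CD44+ and 8.27 to 9.87 CPM in R26 CD44- libraries, with Calb2 at 0 in all libraries of the last 3 groups. Of the 3 tested, 1 was higher and 2 were lower in OG CD44+ than in OG CD44- cells, and likewise against R26 CD44+ cells. In R26 CD44+ against R26 CD44- cells 3 were higher. In OG CD44- against R26 CD44- cells 1 was higher and none lower. The sum in OG CD44+ libraries thus did not stand for each marker. The genes most like Cyp2s1 over the libraries were Anxa8 (r = 0.996), Dnah9, a ciliary dynein chain (r = 0.992), and Tmem212, on the ciliated list (r = 0.991). The part of ciliated or mesothelial cell RNA in the Cyp2s1 differences was not tested.

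**Figure D2:**
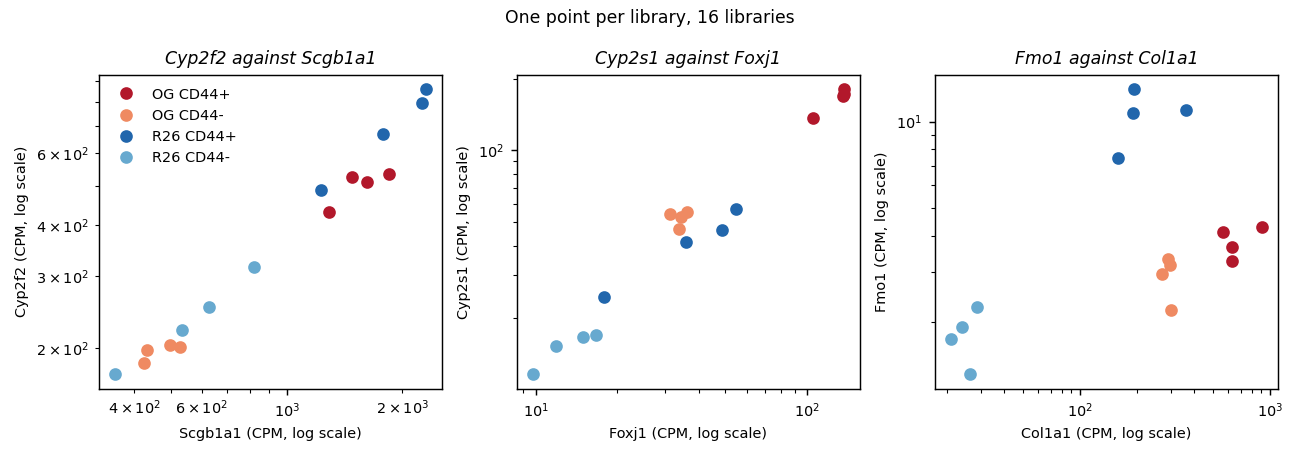
CPM of Cyp2f2, Cyp2s1 and Fmo1 (vertical, log scale) against CPM of Scgb1a1, Foxj1 and Col1a1 (horizontal, log scale), with 1 point per library coloured by group. The ratio of the first pair runs from 0.288 to 0.485 and that of the second from 0.956 to 1.74 over all 16 libraries, whereas R26 CD44+ libraries have more Fmo1 than OG CD44+ libraries at a lower Col1a1 level (158 to 362 CPM, against 569 to 912 CPM). Of 12 fibroblast and mural markers, 3 including Col1a1 are higher and 4 are lower in OG CD44+ than in R26 CD44+ cells.

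Cyp2b10 followed the prefix rather than the sort (chr7:25897658-25926624 on the plus strand, mm10). It had 430, 425, 430 and 349 CPM in OG CD44+, 486, 462, 460 and 436 CPM in OG CD44-, 195, 130, 204 and 146 CPM in R26 CD44+ and 142, 98.6, 158 and 123 CPM in R26 CD44- libraries. Every OG library lay above every R26 library. Markers of alveolar type 1 (AT1) cells, the flat cells of gas exchange, did the same in sum, at 5146 to 5629 CPM in OG CD44+, 4960 to 5477 CPM in OG CD44-, 2864 to 3315 CPM in R26 CD44+ and 2116 to 2335 CPM in R26 CD44- libraries, with none at 0 throughout a group. Of the 10 AT1 markers 9 were higher and none lower in OG than in R26 CD44- cells, and 7 higher and 3 lower in CD44+ cells. By sort, 8 AT1 markers were higher and 1 lower in R26 CD44+ than R26 CD44- cells, and 5 higher and 2 lower in OG animals. Summed ciliated cell markers, given with Cyp2s1, also lay higher in every OG library than in every R26 library. They were at 528 CPM or more in OG and 491 CPM or less in R26 libraries. The part of either cell type in the Cyp2b10 difference was not tested. OG exceeded R26 for Cyp2b10 by 1.83 ± 0.16 on the log2 scale in CD44- cells (adjusted p = 2.09e-07) and by 1.28 ± 0.16 in CD44+ cells (adjusted p = 7.29e-06). By sort, CD44+ minus CD44- was -0.17 ± 0.15 in OG (adjusted p = 0.369) and 0.37 ± 0.16 in R26 animals (adjusted p = 0.0844). Leaving out a library or animal, the R26 difference ran from 0.19 (without R26 CD44- animal 7, adjusted p = 0.320) to 0.41 (without R26 CD44+ animal 7, adjusted p = 0.0430, the one setting of these that called it). With the animal as a block these became -0.18 ± 0.04 (adjusted p = 0.000294) and 0.37 ± 0.04 (adjusted p = 2.66e-09). Cyp2b10 was lower in the CD44+ cells of 4 of 4 OG animals and higher in those of 4 of 4 R26 animals. The difference between these sort differences was -0.55 ± 0.22 (adjusted p = 0.0899) without the block and -0.55 ± 0.06 (adjusted p = 1.02e-09) with it. Of the 50-base stretches in Cyp2b10 transcripts 8.7% also occur in related genes, most of them in Cyp2b13, which itself averaged 0.470 to 1.55 CPM per group.

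Cyp4b1 (chr4:115624698-115647721 on the minus strand), a lung P450 that activates the toxin ipomeanol, was lowest in R26 CD44- cells, and its levels overlapped among the other groups. Its levels were 121, 131, 120 and 89.7 CPM in OG CD44+, 102, 107, 104 and 90.7 CPM in OG CD44-, 140, 75.6, 108 and 88.3 CPM in R26 CD44+ and 46.1, 25.7, 52.0 and 32.2 CPM in R26 CD44- libraries. R26 CD44- libraries did not overlap with any other group, and the other groups overlapped with each other. Several marker sums were also lowest in R26 CD44- libraries, without overlap. These were AT1, fibroblast and mural, ciliated, macrophage and monocyte, lymphocyte and plasma cell, and mesothelial markers. Summed club and secretory markers overlapped there with OG CD44- libraries (880 to 1452 CPM, against 845 to 956 CPM). Of these 14 markers, 12 were higher in CD44+ than in CD44- cells of R26 animals and 14 in OG animals. The part of any of these cell types in the Cyp4b1 differences was not tested. CD44+ cells exceeded CD44- cells by 1.40 ± 0.23 on the log2 scale in R26 animals (adjusted p = 0.000374), and by 0.19 ± 0.22 in OG animals (adjusted p = 0.486, or 0.0330 with the animal as a block). OG exceeded R26 by 1.38 ± 0.23 in CD44- cells (adjusted p = 0.000137), and the difference in CD44+ cells was 0.17 ± 0.22 (adjusted p = 0.514). The sort difference itself was smaller in OG than in R26 animals, by -1.21 ± 0.32 (adjusted p = 0.0145). Without both libraries of R26 animal 1 this difference was -1.09 and no longer called (adjusted p = 0.0502). Of its 50-base stretches 8.26% occur in related genes, 97 of these 190 in the pseudogene Cyp4b1-ps2.

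Cyp1a1 was at or near the floor of detection (chr9:57687928-57703824 on the plus strand, mm10). Its raw counts were 0, 4, 2 and 1 in OG CD44+, 0, 10, 3 and 2 in OG CD44-, 0, 1, 0 and 1 in R26 CD44+ and 0, 1, 1 and 1 in R26 CD44- libraries, or 7, 15, 2 and 3 counts per group. A floor of 3 counts a library equals at most 0.356 CPM. Both libraries of OG animal 6 had more than 3 counts, at 0.332 CPM in CD44+ and 0.448 CPM in CD44- cells, and the other libraries had 3 or fewer. Tiparp, another target of the aryl hydrocarbon receptor, averaged 65.4 CPM in OG CD44+, 68.7 CPM in OG CD44-, 80.3 CPM in R26 CD44+ and 85.0 CPM in R26 CD44- cells. Ahr itself was higher in OG than in R26 cells, by 0.73 on the log2 scale in CD44- cells and 0.39 in CD44+ cells, while Tiparp was lower by -0.31 and -0.30 in the same comparisons, all called. The related P450 gene Cyp1b1 was higher in OG than in R26 CD44- cells (0.745 ± 0.14, adjusted p = 6.13e-05). In CD44+ cells its difference was not called (-0.22 ± 0.13, adjusted p = 0.126).

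Aldh1a1 was higher in CD44+ cells and in OG cells (chr19:20492583-20643463 on the plus strand, mm10). Its levels were 246, 259, 276 and 243 CPM in OG CD44+, 78.8, 79.4, 78.5 and 69.6 CPM in OG CD44-, 170, 90.7, 125 and 159 CPM in R26 CD44+ and 43.8, 27.6, 46.1 and 32.5 CPM in R26 CD44- libraries. No groups overlapped, in the order OG CD44+, R26 CD44+, OG CD44-, R26 CD44-. CD44+ exceeded CD44- cells by 1.74 ± 0.18 on the log2 scale in OG (adjusted p = 4.66e-06) and by 1.86 ± 0.20 in R26 animals (adjusted p = 6.62e-06). OG exceeded R26 by 1.03 ± 0.19 in CD44- cells (adjusted p = 0.000370) and by 0.91 ± 0.18 in CD44+ cells (adjusted p = 0.000535). Its close paralog Aldh1a7 ran the other way, at 65.6 ± 5.0 CPM in OG CD44+, 75.8 ± 3.07 CPM in OG CD44-, 133 ± 7.33 CPM in R26 CD44+ and 166 ± 6.42 CPM in R26 CD44- cells. Aldh1a7 shares 151 of 4934 50-base stretches (3.06%) with Aldh1a1. Per Scgb1a1 count, Aldh1a1 was at 0.133 to 0.188 in OG CD44+ and 0.149 to 0.182 in OG CD44- libraries, against 0.0554 to 0.0889 in R26 CD44+ and 0.0559 to 0.0775 in R26 CD44- libraries, higher in OG. Ciliated cell markers, given with Cyp2s1, were also mostly higher in CD44+ cells and in OG cells. The part of club or ciliated cell RNA in the Aldh1a1 differences was not tested.

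Aldh3a1 (chr11:61208510-61218418 on the plus strand), which oxidises aromatic and medium-chain aldehydes, moved the same way at lower levels and by less. It had 16.5, 15.5, 12.2 and 12.7 CPM in OG CD44+, 12.0, 9.59, 11.4 and 9.69 CPM in OG CD44-, 12.3, 8.71, 11.3 and 13.2 CPM in R26 CD44+ and 8.59, 5.33, 7.83 and 7.0 CPM in R26 CD44- libraries. CD44+ libraries lay above CD44- libraries within each prefix, narrowly in both. Club and ciliated cell markers, given with Cyp2f2 and Cyp2s1, were higher in the same sorts, and their part in the Aldh3a1 difference was not tested. The log2 difference by sort was 0.42 ± 0.14 in OG (adjusted p = 0.0176) and 0.66 ± 0.16 in R26 animals (adjusted p = 0.00153). The OG call was lost without OG CD44- animal 6 or 3, OG CD44+ animal 7 or 6, or both libraries of animal 7 or 6, with adjusted p between 0.0572 and 0.147. OG minus R26 was 0.56 ± 0.15 in CD44- cells (adjusted p = 0.00203, or 0.0561 without R26 CD44- animal 7) and 0.32 ± 0.15 in CD44+ cells (adjusted p = 0.0584). The CD44+ difference was called without R26 CD44- animal 8 or 7, R26 CD44+ animal 8 or 1, OG CD44+ animal 5 or 3, or both libraries of R26 animal 8 or 1 or OG animal 5 or 3 (adjusted p from 0.0269 to 0.0443).

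Fmo2 (chr1:162874317-162898758 on the minus strand), the flavin monooxygenase most abundant in mouse lung, tracked Cyp2f2. Its levels were 124, 114, 130 and 143 CPM in OG CD44+, 63.6, 61.9, 60.7 and 51.1 CPM in OG CD44-, 222, 133, 173 and 228 CPM in R26 CD44+ and 78.9, 52.7, 75.0 and 65.1 CPM in R26 CD44- libraries. CD44+ libraries lay above all CD44- libraries, and the prefixes overlapped within each sort. CD44+ exceeded CD44- cells by 1.11 ± 0.17 on the log2 scale in OG (adjusted p = 0.000132) and by 1.48 ± 0.17 in R26 animals (adjusted p = 1.52e-05). OG minus R26 was -0.19 ± 0.17 in CD44- cells (adjusted p = 0.334, or -0.41 with 0.00563 without both libraries of R26 animal 7) and -0.57 ± 0.17 in CD44+ cells (adjusted p = 0.00789). Over the 16 libraries its Pearson r with Cyp2f2 was 0.968, given as a description. The ratio of Fmo2 to Scgb1a1 CPM was 0.0669 to 0.111 in OG CD44+, 0.12 to 0.141 in OG CD44-, 0.0769 to 0.128 in R26 CD44+ and 0.091 to 0.148 in R26 CD44- libraries, and the part of club cell RNA was not tested.

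Fmo1 (chr1:162829561-162866610 on the minus strand), a flavin monooxygenase prominent in mouse liver and kidney, stood out in R26 CD44+ cells. It had 3.25, 3.66, 4.12 and 4.27 CPM in OG CD44+, 2.21, 3.32, 3.17 and 2.94 CPM in OG CD44-, 13.0, 10.7, 7.48 and 11 CPM in R26 CD44+ and 1.74, 1.32, 1.92 and 2.25 CPM in R26 CD44- libraries. All R26 CD44+ libraries were above all others, and the OG sorts overlapped. The R26 sort difference was 2.56 ± 0.20 on the log2 scale (adjusted p = 8.24e-10), 5.88-fold, from 437 counts in CD44+ and 98 in CD44- libraries. In OG animals it was 0.39 ± 0.20 (adjusted p = 0.107), and the difference between the sort differences was -2.17 ± 0.29 (adjusted p = 5.16e-06). OG minus R26 was -1.46 ± 0.19 in CD44+ cells (adjusted p = 2.44e-07) and 0.70 ± 0.22 in CD44- cells (adjusted p = 0.00628, or 0.0804 without R26 CD44- animal 7 and 0.0865 without both libraries of R26 animal 7). The OG sort difference was called without R26 CD44+ animal 2 (0.44, adjusted p = 0.0496).

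Fibroblast and mural markers were also higher in CD44+ cells, 12 of 12 in each prefix, with a larger sort difference in R26 animals (9 of 12 lower in the interaction, none higher). In OG CD44+ against R26 CD44+ cells 3 of 12 were higher, Col1a1 among them, and 4 were lower. In OG CD44- against R26 CD44- cells 10 of 12 were higher and none lower. Their summed level was 1769 to 3182 CPM in OG CD44+, 799 to 870 CPM in OG CD44-, 937 to 1931 CPM in R26 CD44+ and 148 to 183 CPM in R26 CD44- libraries, with no marker at 0 throughout a group. The gene most like Fmo1 over the libraries was Aspn, a matrix proteoglycan (r = 0.970). The ratio of Fmo1 to Col1a1, a fibroblast collagen, was 0.00469 to 0.00725 in OG CD44+, 0.00734 to 0.0114 in OG CD44-, 0.0303 to 0.0678 in R26 CD44+ and 0.05 to 0.0836 in R26 CD44- libraries. This ratio was lower in OG than in R26 cells of either sort. In CD44+ cells that depends on the marker, since Col1a1 was among the 3 that were higher in OG and 4 were lower. No other fibroblast marker was set against Fmo1. Of 12 endothelial markers 11 were higher and 1 lower in R26 CD44+ than R26 CD44- cells. In OG CD44+ cells 10 were lower than in R26 CD44+ and 7 lower than in OG CD44- cells, with none higher. All 12 were lower in the interaction. Their sum was 116 to 128 CPM in OG CD44+, 193 to 203 CPM in OG CD44-, 212 to 238 CPM in R26 CD44+ and 139 to 162 CPM in R26 CD44- libraries. Much of it was Esam, the 1 marker lower in R26 CD44+ cells, at 90.7, 151, 92.2 and 117 CPM on average in these groups. The sum thus did not stand for each marker. The part of either cell type in the Fmo1 difference was not tested.

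Aox3 (chr1:58113135-58202221 on the plus strand) was the member with the largest difference between prefixes, in the opposite direction to Cyp2b10. Its levels were 94.0, 92.6, 93.0 and 85.7 CPM in OG CD44+, 160, 165, 160 and 154 CPM in OG CD44-, 594, 451, 630 and 425 CPM in R26 CD44+ and 838, 655, 856 and 669 CPM in R26 CD44- libraries. No groups overlapped. OG minus R26 was -2.24 ± 0.13 on the log2 scale in CD44- cells (adjusted p = 4.86e-10) and -2.52 ± 0.13 in CD44+ cells (adjusted p = 1.73e-10). CD44+ minus CD44- was -0.80 ± 0.13 in OG (adjusted p = 9.61e-05) and -0.52 ± 0.12 in R26 animals (adjusted p = 0.00301). The difference of the sort differences was -0.28 ± 0.17 (adjusted p = 0.267), and -0.27 ± 0.06 with the animal as a block (adjusted p = 0.000236). Aox3 thus ran in the direction of the AT2 markers, of which 12 of 12 were lower in each of these 4 comparisons and whose summed level was 23460 to 27840 CPM in OG CD44+, 51990 to 55770 CPM in OG CD44-, 119600 to 169800 CPM in R26 CD44+ and 180000 to 208800 CPM in R26 CD44- libraries. How much of the Aox3 difference goes with a change in AT2 cell share was not tested. Its genomic neighbour Aox1, another aldehyde oxidase, averaged 78.7 ± 4.6 CPM in OG CD44+, 134 ± 5.42 CPM in OG CD44-, 64.9 ± 8.04 CPM in R26 CD44+ and 59.6 ± 3.57 CPM in R26 CD44- cells. OG exceeded R26 for Aox1 by 1.17 ± 0.07 in CD44- cells (adjusted p = 1.27e-13), the reverse of Aox3, and Aox3 transcripts share no 50-base stretch with related genes.

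Per kilobase of exon the enzymes ranked differently by group. In OG CD44+ cells Cyp2f2 was first at 247 ± 23.3 CPM per kb, and Cyp2b10 followed at 194 ± 18.9. In OG CD44- cells Cyp2b10 was first at 218 ± 9.71 CPM per kb, before Cyp2f2 at 97.0 ± 4.46. In R26 CD44+ cells Cyp2f2 led at 348 ± 81.8 CPM per kb, with Cyp2b10 at 79.9 ± 17.1 and Aox3 at 74.7 ± 14.5, which did not differ beyond their spread. In R26 CD44- cells Cyp2f2 at 119 ± 29.5 and Aox3 at 107 ± 15.3 CPM per kb were level within their spread. Aox3 was seventh of the 10 in OG CD44+ and second in R26 CD44- cells. Fmo1 and Cyp1a1 were last in every group, at up to 1.67 and 0.0730 CPM per kb.

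**Figure D3:**
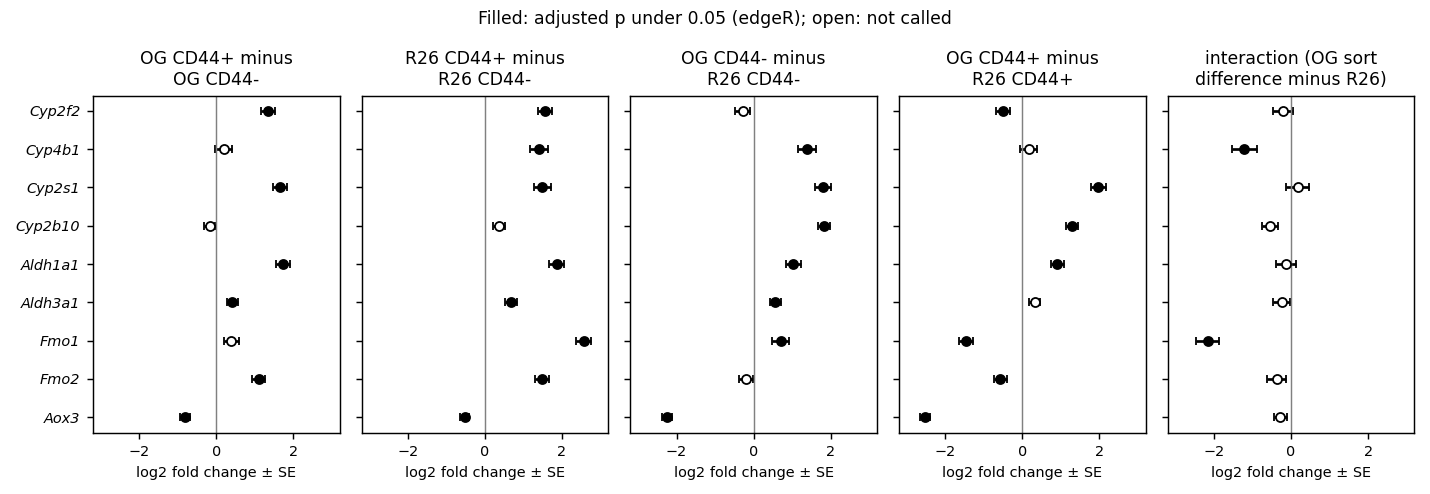
Log2 fold change ± SE (horizontal) of the 9 tested genes in the 4 comparisons and in the interaction, OG sort difference minus R26 sort difference, with filled points for adjusted p under 0.05 in edgeR's test. Sort differences are mostly positive, Cyp2s1, Cyp2b10 and Aldh1a1 are positive and Aox3 negative in both prefix comparisons, and Cyp4b1 and Fmo1 are the filled points in the interaction.

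The sort difference itself differed between prefixes for 2 of 9 members, Cyp4b1 and Fmo1, both lower in OG, beside 24.7% of all genes called, 18.1% lower and 6.57% higher. With the animal as a block Cyp2b10, Aox3 and Cyp2f2 (-0.21 ± 0.07, adjusted p = 0.0201) joined them, 5 of 9 lower, beside 32.1% of all genes called, 22.7% lower and 9.34% higher. Within animals the ratio of CD44+ to CD44- cells was above 1 in 8 of 8 animals for Cyp2f2, Cyp2s1, Aldh1a1, Aldh3a1, Fmo1 and Fmo2, and below 1 in 8 of 8 for Aox3. The share of all genes with the same direction in all animals was not counted. Cyp4b1 was higher in the CD44+ cells of 3 of 4 OG animals, with log2 ratios from -0.02 to 0.30, and of 4 of 4 R26 animals, with log2 ratios from 1.05 to 1.60. For Fmo1 the ratios ran from 0.14 to 0.56 in OG and from 1.97 to 3.02 in R26 animals.

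**Figure D4:**
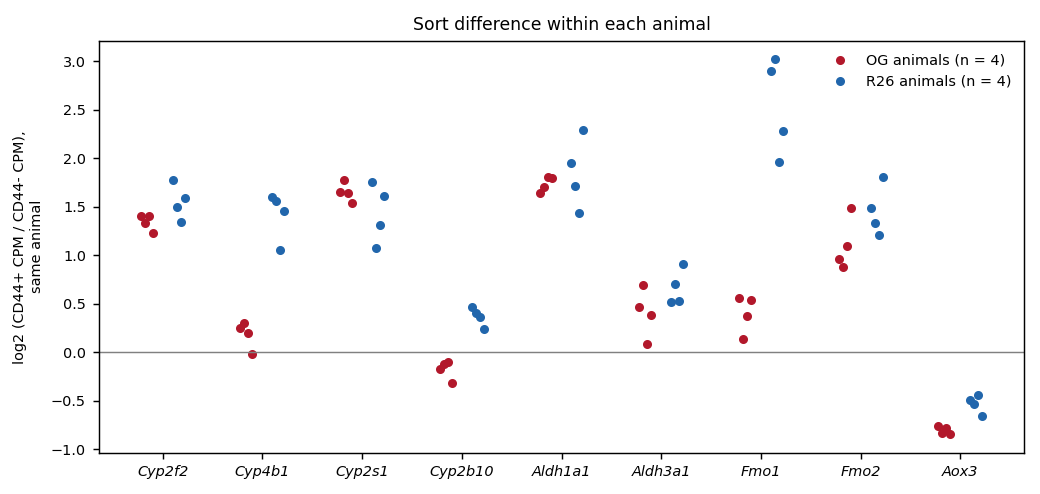
Log2 ratio of CD44+ to CD44- CPM within each animal (vertical) for the 9 tested genes, with 4 OG animals left of 4 R26 animals. For Cyp4b1, Cyp2b10, Fmo1 and Aox3 the prefixes do not overlap, and Cyp2b10 is below 0 in 4 of 4 OG animals and above 0 in 4 of 4 R26 animals. The share of all genes without overlap in these ratios was not counted, so the panel describes the members only.

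Animals differed from each other across the enzymes as a group. R26 animal 7 had the lowest level of its group for 9 of 9 tested members in CD44- cells and 7 of 9 in CD44+ cells, while it was lowest for 25.6% and 23.9% of all tested genes. OG animal 3 was lowest for 7 of 9 members in CD44- cells and 6 of 9 in CD44+ cells, beside 26.5% and 38.7% of all genes. Both animals also had the lowest Scgb1a1 level of their groups, OG animal 3 at 1289 CPM in CD44+ and 426 CPM in CD44- cells, R26 animal 7 at 1229 CPM in CD44+ and 356 CPM in CD44- cells. The CD44+ library of OG animal 3 stood apart from the other OG CD44+ libraries, with fibroblast and mural markers at 3182 CPM in sum, against 1769 to 1861 CPM, and lymphocyte and plasma cell markers at 3987 CPM, against 1404 to 1515 CPM. Over all genes, replicates of a group differed by a chi-square per degree of freedom of 7.80 to 18.6 in R26 CD44+ and 4.72 to 10.6 in R26 CD44- pairs, against 1.66 to 9.06 in OG CD44+ and 2.47 to 5.63 in OG CD44- pairs. For Aox3 the coefficient of variation was 4.18% in OG CD44+ and 2.80% in OG CD44-, against 19.4% in R26 CD44+ and 14.2% in R26 CD44- libraries.

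Other genes of these pathways, 92 listed in 8 classes of which 80 were tested, showed no common direction. In CD44+ against CD44- cells 16 were higher and 23 lower in OG animals, beside 22.3% and 28.0% of all genes. In R26 animals 22 were higher and 20 lower, beside 21.6% and 15.4% of all genes. In OG against R26 cells 33 were higher and 27 lower among CD44- cells, beside 39.4% and 29.6% of all genes. Among CD44+ cells 32 were higher and 30 lower, beside 34.5% and 34.6% of all genes. Their median log2 fold changes were -0.07, -0.09, 0.09 and 0.02 in these 4 comparisons, near the medians of all genes (-0.06, -0.02, 0.12 and -0.01).

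Among other P450 genes, Cyp2a5, which hydroxylates coumarin, had the pattern of Cyp2s1. It averaged 12.6 ± 3.23 CPM in OG CD44+, 3.23 ± 0.32 CPM in OG CD44-, 2.86 ± 0.98 CPM in R26 CD44+ and 0.713 ± 0.326 CPM in R26 CD44- cells, with OG above R26 by 2.12 ± 0.24 in CD44+ cells (adjusted p = 3.80e-08). Cyp4v3, a fatty acid hydroxylase, fell with the AT2 markers, at 66.5 ± 4.38 CPM in OG CD44+, 123 ± 4.82 CPM in OG CD44-, 147 ± 14.7 CPM in R26 CD44+ and 183 ± 11.1 CPM in R26 CD44- cells. Cyp26b1, which degrades retinoic acid, was higher in R26 CD44+ than R26 CD44- cells by 2.28 ± 0.31 (adjusted p = 2.48e-06). In all, 5 of 15 tested other P450 genes were higher and 1 lower in OG CD44+ against OG CD44- cells, beside 22.3% and 28.0% of all genes. In OG CD44- against R26 CD44- cells 6 were higher and 3 lower, near the 39.4% and 29.6% of all genes. Of the electron donors, Por, the oxidoreductase that serves all microsomal P450 enzymes, was at 342 ± 25.3 CPM in OG CD44+, 298 ± 3.87 CPM in OG CD44-, 341 ± 64.6 CPM in R26 CD44+ and 370 ± 32.3 CPM in R26 CD44- cells. The electron donors Cyb5r1 and Cyb5r3, cytochrome b5 reductases, were higher in OG CD44- than R26 CD44- cells by 1.38 ± 0.07 and 0.75 ± 0.08.

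Of 15 other aldehyde dehydrogenases tested, 9 were lower and 2 higher in CD44+ than in CD44- cells of OG animals, and 7 lower and 3 higher in R26 animals. All genes had 28.0% lower and 22.3% higher in OG, and 15.4% lower and 21.6% higher in R26 animals, and the class was not tested as such. Aldh2, the mitochondrial enzyme of acetaldehyde, averaged 269 ± 5.37 CPM in OG CD44+, 332 ± 6.40 CPM in OG CD44-, 418 ± 55.0 CPM in R26 CD44+ and 489 ± 32.2 CPM in R26 CD44- cells, lower in OG in both sorts. Aldh18a1, an enzyme of proline synthesis, and Aldh1l2, of mitochondrial folate metabolism, were higher in OG CD44- than R26 CD44- cells by 1.80 ± 0.08 (adjusted p = 1.23e-15) and 2.23 ± 0.16 (adjusted p = 1.46e-11). Aldh1a2, a retinaldehyde dehydrogenase of mesenchyme, was higher by sort in R26 animals (2.30 ± 0.31, adjusted p = 4.15e-06) and lower in the interaction (-3.30 ± 0.47, adjusted p = 2.13e-05). Of the reductases of aldehydes, ketones and alcohols, 12 of 15 were higher in OG CD44- than R26 CD44- cells and 2 lower, and 7 were higher and 3 lower in CD44+ cells. All genes had 39.4% higher and 29.6% lower in CD44- cells, and 34.5% higher and 34.6% lower in CD44+ cells. This class was not tested as such either. Akr1b8, an aldo-keto reductase, averaged 144 ± 8.82 CPM in OG CD44+, 155 ± 2.98 CPM in OG CD44-, 28.5 ± 3.51 CPM in R26 CD44+ and 20.1 ± 2.52 CPM in R26 CD44- cells. Cbr3, a carbonyl reductase, was higher in OG CD44- than R26 CD44- cells by 3.27 ± 0.11 (adjusted p = 7.06e-18), and Cbr2, the carbonyl reductase of mouse lung, was lower by -2.60 ± 0.14 (adjusted p = 2.83e-10).

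Nqo1, the quinone reductase induced through Nrf2, was the gene most like Cyp2b10 over the 16 libraries (r = 0.986, a description). It averaged 22.7 ± 3.61 CPM in OG CD44+, 30.8 ± 2.17 CPM in OG CD44-, 3.41 ± 1.71 CPM in R26 CD44+ and 1.41 ± 0.42 CPM in R26 CD44- cells, with OG above R26 by 4.47 ± 0.23 in CD44- cells (adjusted p = 2.65e-12) and by 2.78 ± 0.22 in CD44+ cells (adjusted p = 1.28e-09). The gene of Nrf2, Nfe2l2, did not pass the test between prefixes (0.04 in CD44- and 0.10 in CD44+ cells), and Keap1, its inhibitor, was higher in OG by 1.0 ± 0.05 and 0.69 ± 0.06. The constitutive androstane receptor gene, Nr1i3, had 2, 3, 5 and 9 counts per group and was not tested. Mocos, the sulfurase that activates the molybdenum cofactor of aldehyde oxidases, was higher in OG CD44- than R26 CD44- cells by 2.18 ± 0.11 (adjusted p = 4.13e-14) and in OG CD44+ than R26 CD44+ cells by 1.55 ± 0.12 (adjusted p = 6.85e-11), opposite to Aox3. Xanthine dehydrogenase, Xdh, which uses the same cofactor, was lower in OG by -0.70 ± 0.04 and -0.60 ± 0.04. Ephx1, the microsomal epoxide hydrolase that acts on P450 products, was higher in OG by 1.43 ± 0.06 (adjusted p = 7.38e-17) and 1.15 ± 0.06 (adjusted p = 6.38e-15), and the carboxylesterase Ces1d was lower by -1.86 ± 0.10 and -1.73 ± 0.10. Of the conjugating enzymes Sult1a1 and Sult2b1, both sulfotransferases, were lower in OG in both sorts, by -1.0 ± 0.09 and -2.14 ± 0.16 in CD44- cells.

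**Figure D5:**
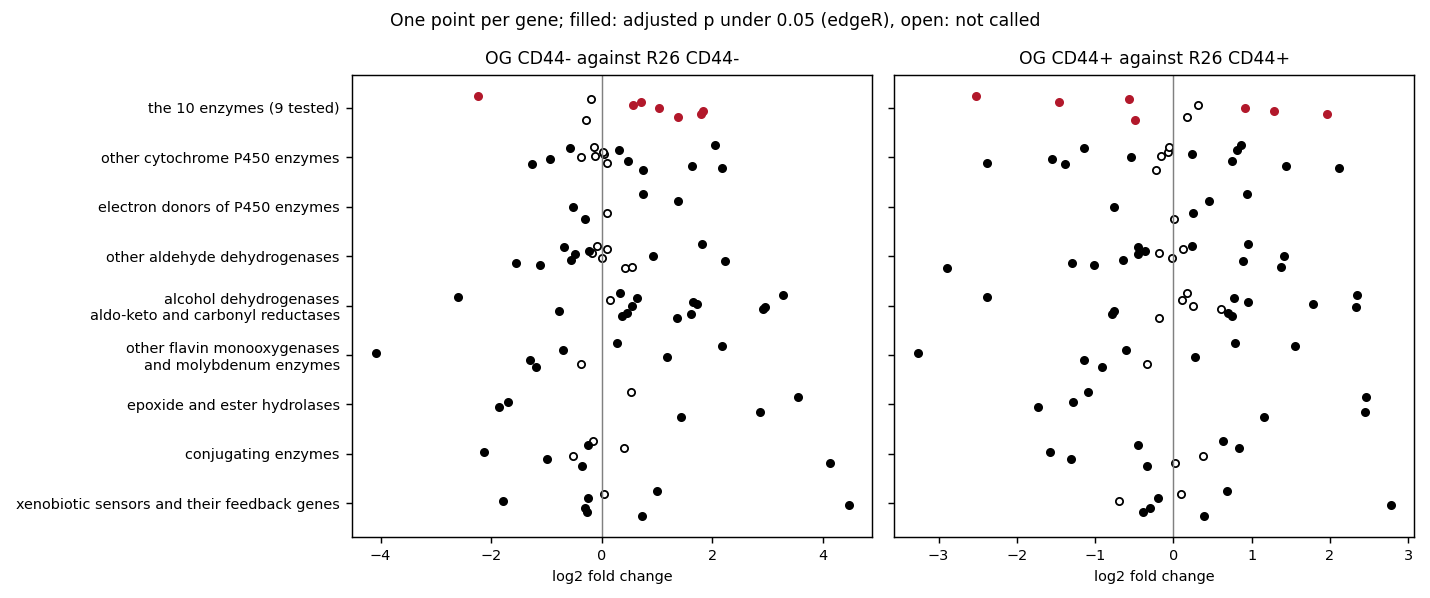
Log2 fold change (horizontal) of OG against R26 cells in CD44- cells (left) and CD44+ cells (right) for the members (top) and 8 classes of related genes, 1 point per gene, filled where adjusted p was under 0.05 in edgeR's test. Each class has points on both sides of 0, and 12 of 15 alcohol dehydrogenases and reductases are filled to the right in CD44- cells, beside 39.4% of all genes.

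Likeness over the libraries, a description that reflects the 4 groups as much as the genes, set the members apart from each other. Cyp2f2 and Fmo2 formed a pair (r = 0.968), and Cyp2s1 and Aldh1a1 another (r = 0.924), while Cyp2b10 and Aox3 ran opposite (r = -0.889) and Cyp2f2 with Cyp2b10 had r = -0.087. Beside Scgb1a1 and Fmo2, the third gene most like Cyp2f2 was Igkv3-7, an immunoglobulin gene segment (r = 0.958), and the summed lymphocyte and plasma cell markers ran at 1404 to 3987 CPM in OG CD44+, 73.1 to 142 CPM in OG CD44-, 1571 to 3807 CPM in R26 CD44+ and 9.88 to 27.2 CPM in R26 CD44- libraries. The part of these cells in the Cyp2f2 difference was not tested. Aldh1a1 was most like Enah, Igf1r and Dnah6 (r = 0.987 to 0.990), and Cyp4b1 most like Ptpre, Gpnmb and Scara3 (r = 0.933 to 0.944). Aldh3a1 was most like Wfdc3, Galnt6 and Spag6l (r = 0.938 to 0.940), and Aox3 most like Zfp704, Mllt6 and Megf6 (r = 0.996 to 0.997).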

How the data were processed

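RNA of sorted mouse AT2 cells was sequenced, per the labels' protocols after depletion of ribosomal RNA with a strand-keeping kit, and the authors deposited raw counts per gene for 16 libraries. The submitters' processing notes list Bowtie2, without a version, and mm10. The counting program, annotation and strand setting are not given in the sources used here. Groups were read from the column names, which also number the animals. Identifiers were matched to RefSeq symbols for 25275 of 27179 (93.0%), and a single unnamed identifier, kept in the totals, took 7.32% of the counts.

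Counts were tested in R 4.3.3 with edgeR 4.0.16 (filterByExpr with a minimum count of 10, TMM scaling, robust quasi-likelihood F test, 1 mean per group over 16 libraries). The SE is the size of the log2 fold change divided by the square root of F, and p-values measure the spread between these animals. Alternatives were another scaling (size factors of DESeq2 1.42.0), its Wald test, limma 3.58.1 voom with quality weights, no filter, a filter of 50 counts in 4 libraries, a fit to the 8 libraries of a comparison alone, the animal as a replicate block, and leaving out each library or animal. The animal numbers in the column names pair the sorts. Deviations from the group mean correlated at 0.025 to 0.22 between the CD44+ and CD44- libraries of an animal. Each was above that with the CD44- library of any other animal of the same prefix. The margin was small in OG animals 7, 6 and 5 (0.044, 0.033 and 0.025, against at most 0.033, 0.011 and 0.008). Values per kilobase use merged exon lengths of GENCODE M21 (mm10). Replicates differed by more than sampling noise (chi-square per degree of freedom of at least 1.66). Named genes are all 10 members, at most 2 called genes per direction, class and comparison with the smallest adjusted p, the 3 genes most like each member, the first 3 of each marker list, Sftpc and Cd44. Por, Nfe2l2, Nr1i3, Ahr, Tiparp, Aox1, Cyp2b13, Aldh2 and Esam are also given where the rule did not take them, chosen with their values seen. The members and lists were chosen with earlier results of these data known.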

Additional observations from a re-analysis of the deposited data

Results flagged for a closer look

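Among 36 sets of 4 libraries, 1 per tested member and group, 3 had a library far from the others. The sets share libraries and animals, so the nominal rate of about 1 in 20 does not apply to this count. All 3 are OG animal 3 as the lowest library: Cyp2b10 in CD44+ cells at 349 CPM, against 425 to 430 CPM in the other OG CD44+ libraries, Aox3 in CD44+ cells at 85.7 CPM, against 92.6 to 94.0 CPM, and Aldh1a1 in CD44- cells at 69.6 CPM, against 78.5 to 79.5 CPM in the other OG CD44- libraries. The CD44+ library of this animal also stood apart over all genes, with a chi-square per degree of freedom of 8.38 to 9.06 to the other OG CD44+ libraries, which had 1.66 to 3.27 among themselves.

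The sort difference of 2 genes differed between prefixes by edgeR's test of the interaction, OG sort difference minus R26 sort difference: Cyp4b1 at -1.21 on the log2 scale and Fmo1 at -2.17. For Cyp2b10 each OG animal had less and each R26 animal more in CD44+ than in CD44- cells. That interaction was -0.55, with adjusted p = 0.0899 without a block and 1.02e-09 with the animal as a block.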

How the results depend on the processing

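Of 45 member results, 9 genes in 5 comparisons, 29 kept their direction and their side of the threshold under all alternatives tried, and members called per comparison stayed within 1.5 times the count given, except in the interaction. There the replicate block called 5 members, not 2, and leaving out a library or animal called 1 to 2. Leaving libraries or animals out gave 5 to 7 members called for OG CD44+ against OG CD44-, 8 to 9 for R26 CD44+ against R26 CD44-, and 6 to 8 for either OG against R26 comparison. The pairing changed no other call than those given with it. Of the uncalled interactions, Cyp2f2 ran from -0.24 to 0.04 and Aldh1a1 from -0.17 to 0.14 when libraries or animals were left out. Cyp2f2 turned to 0.041 without R26 CD44- animal 7 and 0.03 without R26 CD44+ animal 8. Aldh1a1 turned to 0.12 without R26 CD44- animal 7, 0.06 without R26 CD44- animal 1, 0.13 without R26 CD44+ animal 8, 0.07 without R26 CD44+ animal 1, 0.03 without both libraries of R26 animal 8 and 0.14 without both of R26 animal 1. The causes were not tested. The OG CD44+ against R26 CD44+ difference of Cyp2f2 was -0.45 (adjusted p = 0.0602) with no filter and -0.39 (adjusted p = 0.0781) with voom. For Aldh3a1 that comparison was called with no filter (0.37, adjusted p = 0.0282). Fmo1 in OG CD44+ against OG CD44- was called with only the 8 libraries (0.45, adjusted p = 0.0418). The share of called genes that were higher in the interaction was 26.6% with TMM and 39.1% with DESeq2 size factors, and that in the R26 sort comparison 66.2% with only the 8 libraries. The median of all genes in OG CD44- against R26 CD44- was 0.12, and 0.01 with only the 8 libraries. Cyp1a1, at up to 10 counts a library, is below the depth needed for a comparison.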
